A study of Mus musculus with 6 samples.

Results

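Liver transcripts of 6 hepatic acute-phase plasma proteins were followed mouse by mouse in aged LoxP and SIRT2-KOhep mice. The genes were Lrg1, Saa1, Saa2, Orm2, Apcs and Serpina3n, chosen by name and matched through their NCBI Gene IDs, and all 6 were found among the 205 genes of the deposited table. In FPKM as deposited, all 6 mRNAs were highest in SIRT2-KOhep mouse 2, lower in mouse 1 and lowest of the group in mouse 3. This order held in 35.6% of all listed genes. When the libraries were rescaled by the listed genes, Lrg1 and Apcs were highest in mouse 1. Such rescaling cannot tell library scale from a rise shared by most listed genes. On the deposited scale Lrg1, Saa2, Orm2 and Apcs were above every LoxP mouse in each SIRT2-KOhep mouse, as were 23.4% of all listed genes. Saa1 and Serpina3n overlapped with the LoxP group through mouse 3. With libraries rescaled by median ratio only Saa2 and Apcs stayed without overlap, against 6.83% of all listed genes. Rescaling by geometric median ratio left the same 4 genes, against 9.76%.

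The 3 LoxP mice carried floxed SIRT2 alleles without Cre (SIRT2 flox/flox Alb-Cre-), and the 3 SIRT2-KOhep mice carried the same alleles with Cre under the albumin promoter (SIRT2 flox/flox Alb-Cre+), which deletes SIRT2 in hepatocytes. Both groups were on a C57BL/6 background and 18 months of age, and the labels record their genotypes as WT and KO. Alb-Cre itself was present in the SIRT2-KOhep group only, so deletion and Cre cannot be told apart, and the sex of the sequenced mice is not given in the sources used here. The RNA came from whole liver, in which the other cell types keep SIRT2, and fewer cells of a type and less RNA per cell cannot be told apart in such samples.

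Acute-phase proteins are secreted by hepatocytes into plasma, and their output shifts when interleukin-6 and interleukin-1 reach the liver during infection or injury. Interleukin-6 acts through STAT3, interleukin-1 through NF-κB, and both converge with C/EBP factors on the promoters of these genes. Serum amyloid A (Saa1, Saa2) is carried on high-density lipoprotein, Orm2 is an α1-acid glycoprotein that binds small molecules, Apcs encodes serum amyloid P, a pentraxin, Serpina3n encodes a serine protease inhibitor, and Lrg1 encodes leucine-rich α-2-glycoprotein 1.

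Values are FPKM, fragments scaled by transcript length and by the number of mapped fragments, which allow levels to be compared between genes. Sequencing depth is unknown, and the 205 listed genes are a selection whose rule is not given in the sources used here. Group means of the listed genes stood well apart throughout. Tifa, with a SIRT2-KOhep mean 2.00 times the LoxP mean, was among the closest. The list thus holds genes that differ between these same libraries, and a p-value for a listed gene is not independent evidence. A share of all listed genes is likewise a share among such genes. Sirt2 itself was at 26.5, 28.6 and 25.8 FPKM in the LoxP mice, as compared with 7.21, 8.45 and 8.58 FPKM in the SIRT2-KOhep mice. No library went against its label. SIRT2-KOhep mouse 2 stood apart from the other libraries. Set against the LoxP mean, the 205 listed genes had a median log2 difference of 0.50 in this mouse, 0.08 in mouse 1 and 0.06 in mouse 3, and fold changes and ratios of the 6 genes are given with and without it. The added 1 of log2(FPKM + 1) damps the medians over the 205 genes, as many of them were low. None of the 15 hepatocyte markers examined was among the listed genes, so the tissue label was not checked by them.

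The genes lie on 5 chromosomes of GRCm38 (mm10). Lrg1 (Gene ID 76905) is on chromosome 17 from 56119678 to 56122001 on the minus strand and has 2 exons in GENCODE M21. Saa1 (Gene ID 20208, chromosome 7, 46740497 to 46742980, minus strand) and Saa2 (Gene ID 20209, chromosome 7, 46751790 to 46754313, plus strand) have 4 exons each and are transcribed away from each other from starts 8810 bases apart. Orm2 (Gene ID 18406) is on chromosome 4 from 63362449 to 63365878 on the plus strand with 6 exons, next to its copies Orm1 and Orm3. Apcs (Gene ID 20219) is on chromosome 1 from 172893961 to 172895041 on the minus strand with 2 exons. Serpina3n (Gene ID 20716) is on chromosome 12 from 104406729 to 104414329 on the plus strand with 5 exons.

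As the levels of the 6 mRNAs are compared mouse by mouse, their upstream sequences are shown beside the values. RefSeq promoters on GRCm38.p6, from 250 bases before to 50 bases after each gene's start, were searched on both strands for TTCNNNGAA (STAT), TTGCNNAA (C/EBP) and an NF-κB motif of 10 letters. All 6 genes had a window. The STAT letters were found in 8.3% of all 32851 promoters and in 1 of the 6 genes, the C/EBP letters in 10.8% and in 3 of the 6, and the NF-κB letters in 4.79% and in 1 of the 6. The stretches below end before the first annotated transcript start in the window, are read 5′ to 3′ on the strand of the gene, and carry the matches in capitals. For Saa1, Apcs and Serpina3n the match and the bases next to it are given.
Lrg1, chr17:56122002-56122196, minus strand: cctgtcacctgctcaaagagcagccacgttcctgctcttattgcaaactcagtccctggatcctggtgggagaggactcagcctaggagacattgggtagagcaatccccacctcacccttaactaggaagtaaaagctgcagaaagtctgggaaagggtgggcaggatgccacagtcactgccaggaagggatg
Saa2, chr7:46751583-46751789, plus strand: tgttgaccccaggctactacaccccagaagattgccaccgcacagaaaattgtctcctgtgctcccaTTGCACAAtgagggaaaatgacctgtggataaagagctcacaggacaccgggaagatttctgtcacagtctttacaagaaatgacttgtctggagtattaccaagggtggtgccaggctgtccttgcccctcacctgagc
Saa1, chr7:46743145-46743172, minus strand: tgtgctcccaTTGCACAAtgagggagaa
Orm2, chr4:63362199-63362448, plus strand: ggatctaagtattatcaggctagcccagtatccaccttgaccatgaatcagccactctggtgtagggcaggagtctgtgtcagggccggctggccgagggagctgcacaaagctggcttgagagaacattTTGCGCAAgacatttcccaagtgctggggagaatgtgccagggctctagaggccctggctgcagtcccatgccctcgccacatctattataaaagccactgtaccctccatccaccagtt
Apcs, chr1:172895280-172895304, minus strand: atcttcTTCTAGGAAagcacagggt
Serpina3n, chr12:104406527-104406556, plus strand: aacagaggtgGGGCTTTTCCcatcaggaag

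Distances are counted from the RefSeq starts. That of Saa2, at 46751833, lies inside the GENCODE gene, and the printed Saa2 stretch ends before the GENCODE start at 46751790. Against the RefSeq starts TTGCACAA stood at nearly the same place in both serum amyloid A promoters. It was from 182 to 175 bases before the start of Saa1 and from 183 to 176 bases before the start of Saa2. The 2 windows were 96.0% identical over 299 aligned bases. The Orm2 match, TTGCGCAA, reads the same on both strands and began 120 bases before the start. The Apcs match to the STAT letters, also the same motif on both strands, began 244 bases before the start, and the Serpina3n match to the NF-κB letters began 171 bases before it. None of the 3 motifs was found in the Lrg1 window. A match is a string of letters and not a binding site, and its absence holds for these letters and this window only.

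Lrg1 was the most abundant of the 6 transcripts in every LoxP mouse, at 306, 318 and 208 FPKM. SIRT2-KOhep mice 1, 2 and 3 had 692, 1136 and 376 FPKM. Each SIRT2-KOhep value was above each LoxP value, and the lowest of them was 1.18 times the highest LoxP value. The group means were 277 ± 60.8 FPKM and 734 ± 382 FPKM (SD, n = 3 each). On log2(FPKM + 1), a scale that understates changes of low genes, the log2 fold change was 1.29 (standard error, SE, 0.64, 95% interval -0.22 to 2.79, limma, Benjamini-Hochberg adjusted p = 0.300). It was 0.90 without SIRT2-KOhep mouse 2 (limma, adjusted p = 0.287). A two-sided exact permutation test gave p = 0.1, the smallest that 3 mice against 3 allow.

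Apcs was the gene whose LoxP values lay closest together, at 79.3, 89.0 and 79.1 FPKM, a coefficient of variation of 6.83%. The SIRT2-KOhep mice had 273, 415 and 117 FPKM. No SIRT2-KOhep mouse overlapped with the LoxP group, and mouse 3 was 1.31 times the highest LoxP mouse. The log2 fold change came to 1.51 (SE 0.64, 95% interval 0.01 to 3.01, limma, Benjamini-Hochberg adjusted p = 0.300), and 1.11 without mouse 2. The unadjusted limma p was 0.0487, and the two-sided exact permutation test gave p = 0.1.

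Serpina3n, the second most abundant of the 6 in the LoxP mice, was at 251, 191 and 144 FPKM there. In SIRT2-KOhep livers it reached 273, 776 and 203 FPKM, so mouse 3 lay within the LoxP range and mouse 1 was 1.40 times the LoxP mean. The log2 fold change of 0.88 (SE 0.69, limma, Benjamini-Hochberg adjusted p = 0.324) was 0.30 without mouse 2, and the two-sided exact permutation test gave p = 0.2.

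Saa1 was at 205, 125 and 113 FPKM in the LoxP mice. Saa1 in SIRT2-KOhep mice 1, 2 and 3 reached 484, 6108 and 193 FPKM. Mouse 2 had the most Saa1 mRNA by a wide margin, and mouse 3 was below LoxP mouse 1. The log2 fold change came to 2.53 (SE 1.25, 95% interval -0.43 to 5.49, limma, Benjamini-Hochberg adjusted p = 0.300), and 1.09 without mouse 2. The two-sided exact permutation test gave p = 0.2.

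Saa2 was at 64.8, 55.0 and 56.8 FPKM in the LoxP mice, a narrower spread than that of Saa1. In SIRT2-KOhep livers it reached 217, 4717 and 91.3 FPKM. All of these were above the LoxP group, mouse 3 being 1.41 times the highest LoxP mouse, the widest such gap of the 6 genes. The log2 fold change came to 2.93 (SE 1.39, 95% interval -0.36 to 6.23, limma, Benjamini-Hochberg adjusted p = 0.300), and 1.25 without mouse 2. The two-sided exact permutation test gave p = 0.1.

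Orm2 was at 97.0, 61.6 and 49.9 FPKM in the LoxP mice, as compared with 129, 2429 and 113 FPKM in the SIRT2-KOhep mice. The groups did not overlap, but mice 1 and 3 were close to LoxP mouse 1, and the lowest SIRT2-KOhep value was 1.17 times the highest LoxP value. The log2 fold change came to 2.28 (SE 1.21, limma, Benjamini-Hochberg adjusted p = 0.300), and 0.84 without mouse 2. The two-sided exact permutation test gave p = 0.1.

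The spread within the SIRT2-KOhep group was wider than within the LoxP group for all 6 genes. The highest LoxP mouse was 1.12 (Apcs) to 1.94 (Orm2) times the lowest. Among SIRT2-KOhep mice this ratio was 3.02 for Lrg1, 3.55 for Apcs and 3.83 for Serpina3n, but 21.5 for Orm2, 31.7 for Saa1 and 51.6 for Saa2. The SIRT2-KOhep means of 2261 ± 3334 FPKM for Saa1, 1675 ± 2635 FPKM for Saa2 and 890 ± 1333 FPKM for Orm2 (SD, n = 3) therefore lie far from the level of any single mouse.

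**Figure D1:**
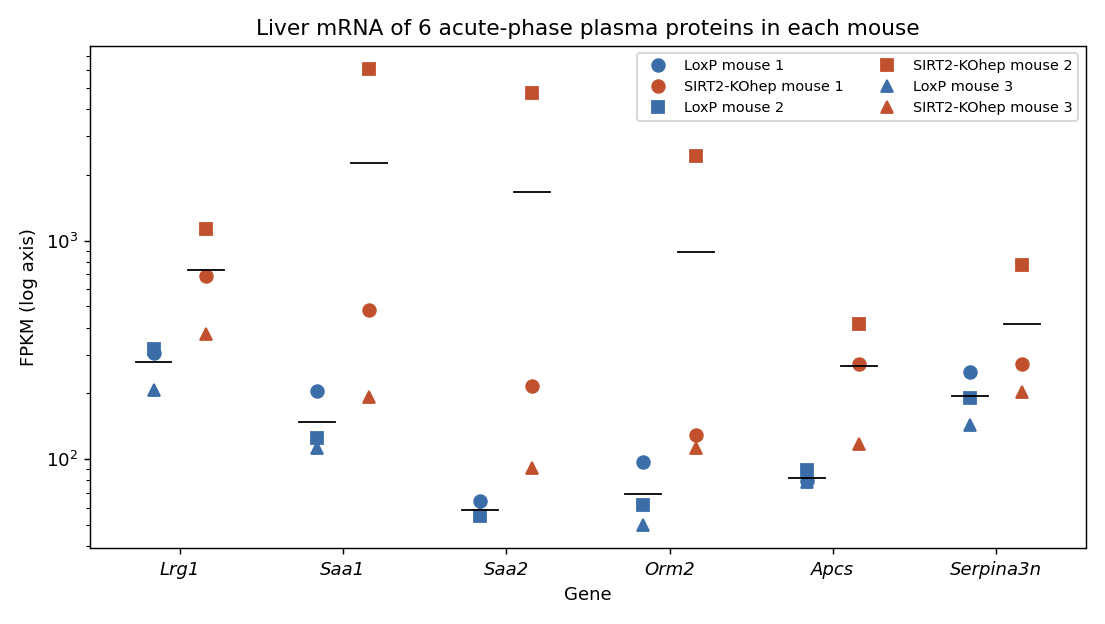
FPKM (log axis) of the 6 genes in each mouse, with LoxP mice in blue and SIRT2-KOhep mice in red, the marker shape giving the replicate number and the short line the group mean. Saa1, Saa2 and Orm2 reached 6108, 4717 and 2429 FPKM in SIRT2-KOhep mouse 2, while the other 5 mice stayed at or below 484 FPKM for these genes.

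After Benjamini-Hochberg adjustment, limma called none of the 6 genes at a threshold of 0.05 and none of the 205 listed genes (0%). Without the mean-variance trend, or without moderated variances, 1 listed gene (Sirt2) passed, and 22 genes had an unadjusted limma p below 0.05 in either direction. At an unadjusted p below 0.05, 1 of the 6 (Apcs) was higher in SIRT2-KOhep livers, against 6.34% of the 205 genes. In 4 of the 6 genes every SIRT2-KOhep mouse was above every LoxP mouse, which held for 23.4% of all listed genes. As the rule behind the listed genes is not known, nothing is read from the distance between these shares. The median log2 fold change was 1.90 for the 6 genes and 0.34 for all 205, the latter damped by the added 1, as many listed genes were low.

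As mouse 2 had the highest SIRT2-KOhep value of each of the 6 genes, leaving it out could not change which of them overlapped. The 4 genes (Lrg1, Saa2, Orm2 and Apcs) were above every LoxP mouse in both mice 1 and 3, as were 25.4% of all listed genes. The overlap of Saa1 and Serpina3n rested on mouse 3 and LoxP mouse 1. Without LoxP mouse 1 the count was 6 of 6, against 29.8% of all listed genes, and without SIRT2-KOhep mouse 3 it was also 6 of 6, against 44.9%. LoxP mouse 1 had the highest LoxP value of Saa1, Saa2, Orm2 and Serpina3n, and LoxP mouse 2 that of Lrg1 and Apcs.

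Scaling of the libraries bore on the count. Dividing each library by its median ratio to the gene means of the listed genes shifted the median log2 fold change of all 205 genes by 0.26, from 0.34 to 0.08. The shift was larger for the 6 genes, as the added 1 damps that of low genes. Lrg1 went from a log2 fold change of 1.29 to 0.35, and Serpina3n from 0.88 to -0.060. With this scaling Saa2 and Apcs alone stayed above every LoxP mouse (2 of 6 genes, against 6.83% of all listed genes). With ratios to geometric means, a scaling chosen after the data were seen, the same 4 genes as without rescaling did not overlap (9.76% of all listed genes), and Lrg1 had a log2 fold change of 0.52. The log2 fold change of Apcs was 0.58 with the first scaling and 0.75 with the other, and its unadjusted limma p was above 0.05 in both. Saa1, Saa2 and Orm2 were at 1.60, 2.00 and 1.35 with the first scaling. The log2 divisor of SIRT2-KOhep mouse 2 was 1.42 with the first scaling, and those of all other libraries lay between -0.61 and 0.09. With geometric means it came to 1.20, the others lying between -0.56 and 0.09. Both scalings rest on the listed genes and not on a whole transcriptome. Of these genes 75.1% had a higher mean in SIRT2-KOhep livers, so the scalings tend to lower that group. A rise shared by most listed genes and a difference in library scale cannot be told apart by them.

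Mouse by mouse, the 3 knockout livers differed in how far and in which genes they departed from the LoxP mean. In mouse 3 the departures were small and even. Orm2 was at 1.63 times the LoxP mean, Saa2 at 1.55, Apcs at 1.42, Lrg1 at 1.35, Saa1 at 1.30 and Serpina3n at 1.04 times. In mouse 1 Saa2 (3.69 times), Apcs (3.31 times), Saa1 (3.28 times) and Lrg1 (2.49 times) were above Orm2 (1.86 times) and Serpina3n (1.40 times).

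In mouse 2 the genes fell into 2 ranges. Saa2 was at 80.1 times, Saa1 at 41.4 times and Orm2 at 35.0 times the LoxP mean. Apcs was at 5.04 times, Lrg1 at 4.09 times and Serpina3n at 3.98 times. From mouse 1 to mouse 2, therefore, Saa2 and Orm2 differed far more than Apcs and Lrg1 did. Mouse 2 supplied 96.1% of the summed excess of Saa2 mRNA over the LoxP mean, 95.8% of that of Orm2 and 94.0% of that of Saa1, but 62.6% of that of Lrg1 and 59.7% of that of Apcs. For Serpina3n its part was 87.2%. The knockout maximum lay in mouse 2 for 6 of the 6 genes and for 57.1% of all listed genes. The order of mouse 2 above mouse 1 above mouse 3 held in 6 of the 6 genes and in 35.6% of all listed genes.

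This order changed when the libraries were rescaled by the listed genes, which cannot tell library scale from a rise shared by most of them. With division by the median ratio, Lrg1 was at 649, 423 and 404 and Apcs at 256, 155 and 126 rescaled FPKM in SIRT2-KOhep mice 1, 2 and 3, so that mouse 1 was highest for both. Geometric ratios gave 650, 494 and 412 for Lrg1 and 257, 181 and 128 for Apcs. The LoxP mice spanned 317 to 420 for Lrg1 and 105 to 121 for Apcs by median ratio. By geometric ratio they spanned 306 to 394 and 96.9 to 117. Serpina3n in SIRT2-KOhep mouse 2 was at 289 by median ratio (LoxP 219 to 331) and at 338 by geometric ratio (LoxP 212 to 307). With either scaling Saa1, Saa2, Orm2 and Serpina3n were still highest in mouse 2 (4 of 6 genes, against 31.7% of all listed genes by median ratio and 38.0% by geometric ratio). The full order was left in 3 of the 6 genes (Saa1, Saa2 and Serpina3n), against 16.1% and 20.0% of all listed genes, as Orm2 in mouse 1 came below mouse 3.

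**Figure D2:**
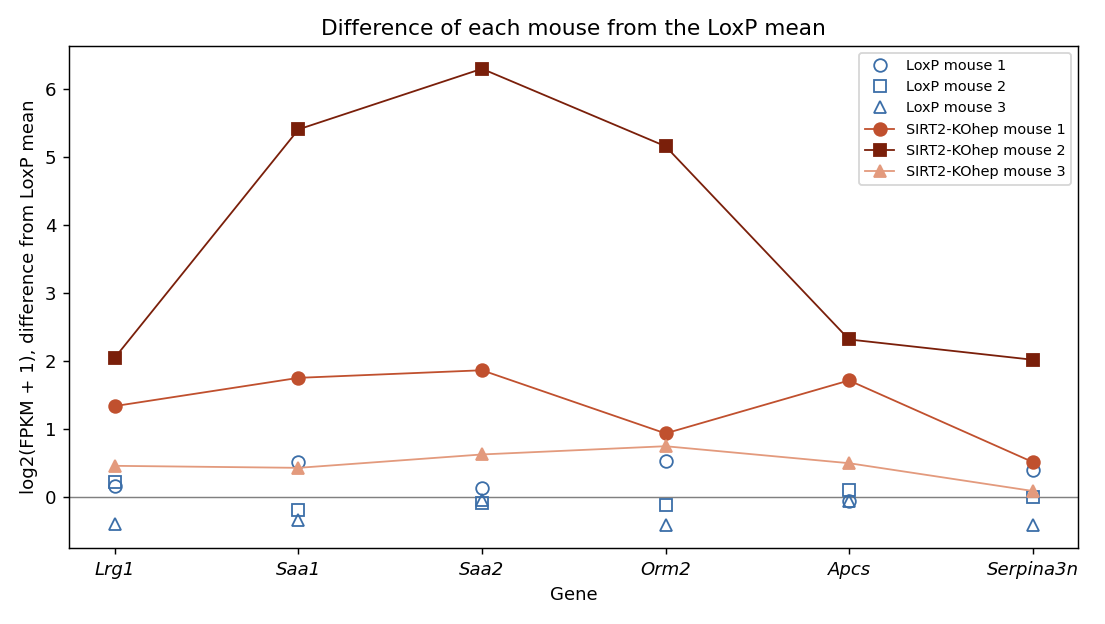
Difference of log2(FPKM + 1) from the LoxP mean for each gene, with open blue markers for LoxP mice and filled red markers for SIRT2-KOhep mice, lines joining the values of each SIRT2-KOhep mouse. SIRT2-KOhep mouse 2 reached 6.30 for Saa2 and 2.06 for Lrg1, mouse 1 reached 1.87 and 1.34, and mouse 3 0.63 and 0.46.

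The summed FPKM of the 6 transcripts was 1003, 839 and 650 in the LoxP mice and 2067, 15581 and 1092 in SIRT2-KOhep mice 1, 2 and 3. Lrg1 supplied 30.5% to 37.9% of this sum in the LoxP mice, 33.5% in SIRT2-KOhep mouse 1 and 34.4% in mouse 3. In mouse 2 its share was 7.29%, and Lrg1 was the fourth of the 6 by level, behind Saa1 (39.2% of the sum), Saa2 (30.3%) and Orm2 (15.6%). The order of abundance in mouse 3, with Lrg1 highest, then Serpina3n, Saa1, Apcs, Orm2 and Saa2, was that of LoxP mouse 2.

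**Figure D3:**
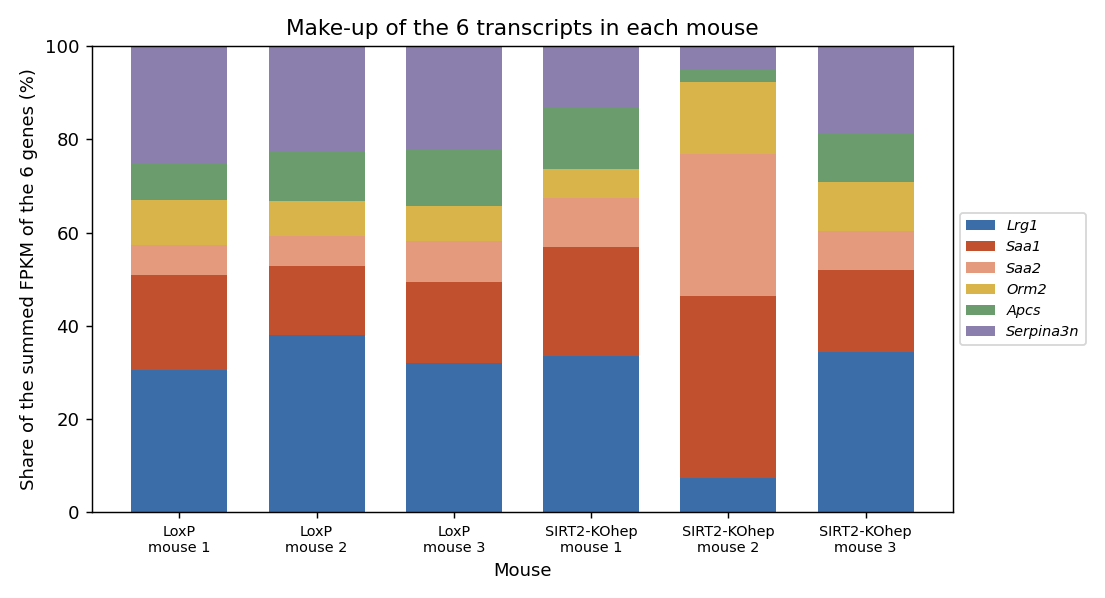
Share of each gene in the summed FPKM of the 6 genes (percent, stacked bars) in each mouse. The Lrg1 share was between 30.5% and 37.9% in 5 mice and 7.29% in SIRT2-KOhep mouse 2.

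Ratios between 2 transcripts of 1 library do not depend on how the library is scaled. Apcs kept close to Lrg1. The ratio of Apcs to Lrg1 was 0.26, 0.28 and 0.38 in the LoxP mice and 0.39, 0.37 and 0.31 in the SIRT2-KOhep mice. The group difference in log2 ratio was 0.23 (two-sided exact permutation test, p = 0.3), and the log2 ratios of all 6 mice lay between -1.93 and -1.34. Serpina3n was at 0.82, 0.60 and 0.69 times Lrg1 in the LoxP mice and at 0.39, 0.68 and 0.54 times in the SIRT2-KOhep mice, a log2 difference of -0.41 (exact permutation p = 0.2). Without mouse 2 the differences were 0.21 for Apcs and -0.60 for Serpina3n.

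The ratio of Saa2 to Lrg1 was 0.21, 0.17 and 0.27 in the LoxP mice and 0.31, 4.15 and 0.24 in the SIRT2-KOhep mice. The log2 ratio of mouse 2 was 2.05, against -2.51 to -1.67 in the other 5 mice. Saa1 behaved in the same manner, with 0.67, 0.39 and 0.55 times Lrg1 in LoxP mice and 0.70, 5.38 and 0.51 times in SIRT2-KOhep mice. Orm2 was at 0.32, 0.19 and 0.24 times Lrg1 in LoxP mice and at 0.19, 2.14 and 0.30 times in SIRT2-KOhep mice. The group difference in log2 ratio to Lrg1 was 1.65 for Saa2 (exact permutation p = 0.2), 1.25 for Saa1 (exact permutation p = 0.4) and 1.00 for Orm2 (exact permutation p = 0.7). Without mouse 2 these were 0.35, 0.19 and -0.057.

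The ratio of Saa1 to Saa2 was 3.16, 2.26 and 1.99 in the LoxP mice, and 2.23, 1.29 and 2.11 in the SIRT2-KOhep mice. It was lowest in mouse 2, where Saa2 supplied 43.6% of the summed serum amyloid A transcripts, against 24.0% to 33.4% in the other mice. The group difference in log2 ratio was -0.40 (two-sided exact permutation test, p = 0.4), and -0.15 without mouse 2. None of the 6 ratio comparisons had an adjusted p below 0.48 (Benjamini-Hochberg over the 6 exact permutation tests). The principal transcripts of Saa1 and Saa2 were 94.4% identical over 606 aligned bases, and 13.2% of the 50-base windows of Saa1 but 0% of its 100-base windows occurred unchanged in Saa2. Read length and the treatment of shared reads are not given in the sources used here, so single values of either gene are uncertain. With both added before the log, the log2 fold change was 2.67 (limma, Benjamini-Hochberg adjusted p = 0.300), and 1.14 without mouse 2.

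**Figure D4:**
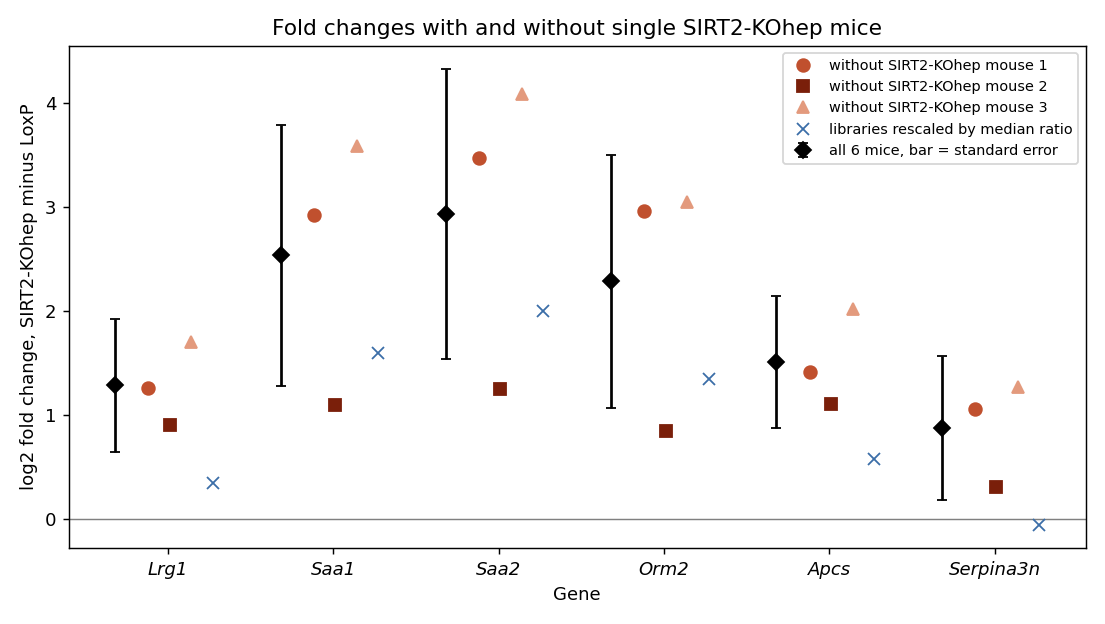
Log2 fold change (SIRT2-KOhep minus LoxP, on log2(FPKM + 1)) of each gene with all 6 mice (black, bar = standard error), without each SIRT2-KOhep mouse in turn, and after rescaling by the median ratio. Without mouse 2 the values lay between 0.30 (Serpina3n) and 1.25 (Saa2), and those of Saa1, Saa2 and Orm2 came down by more than those of Lrg1 and Apcs.

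Among the other acute-phase genes examined, few were listed. Of 36 further plasma proteins whose level goes up in the acute phase, 3 were listed, and all 3 had a higher mean in SIRT2-KOhep livers, as did 75.1% of all listed genes. Orm1, the most abundant α1-acid glycoprotein transcript, was at 1373, 1321 and 1220 FPKM in LoxP mice, as compared with 1871, 5946 and 1661 FPKM in SIRT2-KOhep mice. It was 4.56 times the LoxP mean in mouse 2, where Orm2 was at 35.0 times, and both were above every LoxP mouse in mice 1 and 3. Orm3 was at 30.4, 27.4 and 11.1 FPKM in LoxP mice, as compared with 9.73, 185 and 49.9 FPKM in SIRT2-KOhep mice, so mouse 1 was below every LoxP mouse. Lcn2, encoding the iron-siderophore binding protein lipocalin 2, was at 85.0, 45.7 and 20.6 FPKM and at 125, 1649 and 53.8 FPKM, respectively. The adjusted limma p-values of these 3 genes (Benjamini-Hochberg) were 0.300 for Orm1, 0.375 for Orm3 and 0.300 for Lcn2. Their log2 fold changes were 1.02, 1.08 and 2.35 with all mice and 0.44, 0.08 and 0.91 without mouse 2. Orm1 and Orm2 transcripts were 91.0% identical and shared 6.95% of their 100-base windows, so the split between them is uncertain.

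Of 15 further genes of the acute phase, a mixed list of iron, metal-binding, signalling and some secreted products, 7 were listed (Hamp, Hamp2, Mt1, Mt2, Fgl1, Tifa and Chil1). Fgl1 encodes the secreted fibrinogen-like protein 1. It was at 405, 331 and 250 FPKM in LoxP mice, as compared with 949, 1640 and 551 FPKM in SIRT2-KOhep mice, without overlap. Of the 7 it alone had every SIRT2-KOhep mouse above every LoxP mouse, against 23.4% of all listed genes. It was also the 1 gene of the 7 with an unadjusted limma p below 0.05 (p = 0.0450, adjusted p = 0.300, two-sided exact permutation p = 0.1). Of all listed genes 6.34% were called higher in SIRT2-KOhep livers at this threshold. Its log2 fold change was 1.55, and 1.16 without mouse 2. The metallothioneins did not follow the order of the 6 genes. Mt2 was at 320, 78.9 and 129 FPKM in LoxP mice, as compared with 90.2, 2482 and 487 FPKM in SIRT2-KOhep mice, so that mouse 1 lay within the LoxP range. Hamp, encoding the iron hormone hepcidin, was below every LoxP mouse (59.0 to 225 FPKM) in SIRT2-KOhep mice 1 and 2, with 12.4 and 3.03 FPKM. Mouse 3, with 136 FPKM, lay within the LoxP range.

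None of 16 negative acute-phase plasma proteins, such as albumin and transthyretin, was listed. Of 29 genes chosen for the interleukin-6, interleukin-1, STAT3, NF-κB and C/EBP pathways, 1 was listed, Socs2, a suppressor of cytokine signalling. Socs2 was at 20.0, 8.59 and 15.8 FPKM in LoxP mice, as compared with 4.51, 5.74 and 1.70 FPKM in SIRT2-KOhep mice (log2 fold change -1.69, limma, Benjamini-Hochberg adjusted p = 0.300). Without mouse 2 the log2 fold change was -1.96. The level of this 1 gene does not show the activity of these pathways, which was not tested. The levels of unlisted genes are not known from the table.

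Over the 6 mice, the profile most like that of Lrg1 was that of Fgl1. Likeness was measured as the root mean square difference of log2(FPKM + 1) after each gene was set to 0 at its LoxP mean, over 102 listed genes other than the 6 whose mean reached 1 FPKM. It was 0.22 for Fgl1, 0.26 for Gas6, which encodes a ligand of the TAM receptor kinases, 0.28 for Slc22a27, 0.30 for S100a8, a calprotectin subunit, and 0.32 for Slc41a2. Of the 5 other genes under study, Apcs (0.25) and Serpina3n (0.39) were near Lrg1, while Orm2 (1.30), Saa1 (1.40) and Saa2 (1.76) were far from it. Slc22a27 and S100a8 were low, with LoxP means of 0.43 and 4.55 FPKM. Nearest to Saa2 were Lcn2 (0.72), Prtn3 (1.12) and Slc22a26 (1.14), which were farther from it than Saa1 (0.42) and Orm2 (0.64). Prtn3, encoding a serine protease, differed in that its SIRT2-KOhep mouse 1 value, 36.8 FPKM, was 18.5 times the LoxP mean.

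**Figure D5:**
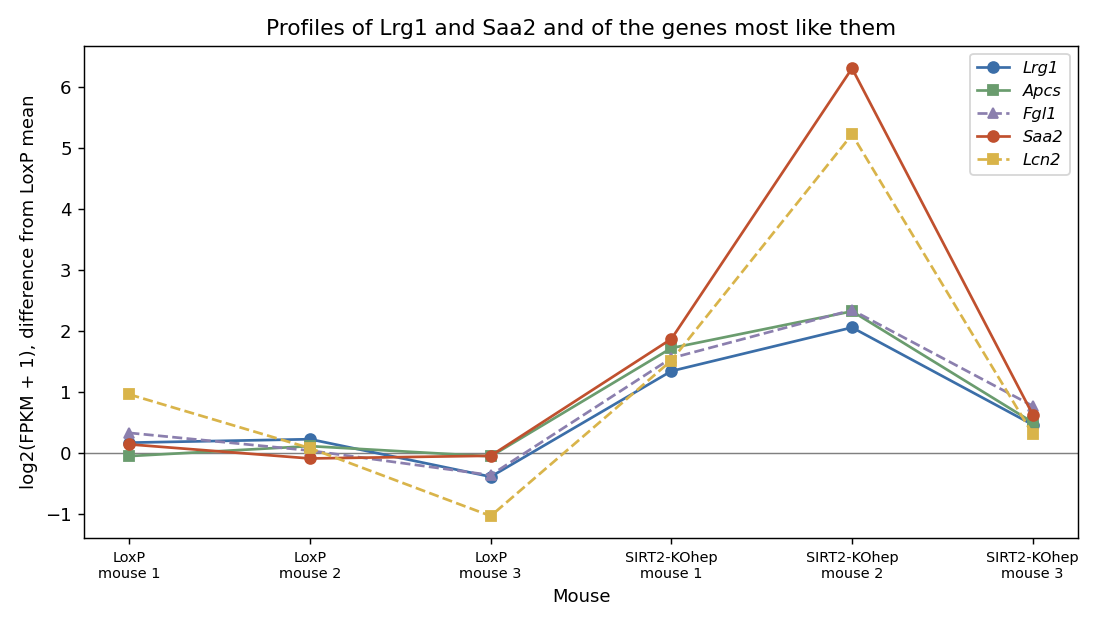
Difference of log2(FPKM + 1) from the LoxP mean in each of the 6 mice for Lrg1, Apcs and Saa2 (solid lines) and for Fgl1 and Lcn2 (dashed lines), the genes nearest to Lrg1 and Saa2. Lrg1, Apcs and Fgl1 ran together, with 2.06, 2.32 and 2.34 in SIRT2-KOhep mouse 2, where Saa2 reached 6.30.

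Every listed marker of another cell type had its highest SIRT2-KOhep value in mouse 2, against 57.1% of all listed genes. This is on the deposited scale, and the markers were not counted after rescaling. The share of all listed genes was then 31.7% by median ratio and 38.0% by geometric ratio. Of 8 erythrocyte markers 7 were listed, with a summed level of 1087 to 1822 FPKM in LoxP mice and of 2685, 6767 and 1603 FPKM in SIRT2-KOhep mice 1, 2 and 3. Of 13 neutrophil markers 7 were listed. S100a8 was at 5.83, 4.93 and 2.89 FPKM in LoxP mice, as compared with 7.42, 20.0 and 5.84 FPKM in SIRT2-KOhep mice. Mpo, a gene of their granules, was at most 0.84 FPKM in any mouse. Apart from Lcn2, which hepatocytes express too, the neutrophil markers summed to 15.1, 11.5 and 6.80 FPKM in LoxP mice and to 18.4, 49.8 and 12.6 FPKM in SIRT2-KOhep mice. Prtn3 (proteinase 3) was not among the markers examined and is left out of this sum. It was at 2.83, 2.78 and 0.34 FPKM in LoxP mice, as compared with 36.8, 72.6 and 2.48 FPKM in SIRT2-KOhep mice. Of 10 plasma and B cell markers 2 were listed (Jchain and Mzb1), summing to 17.0 FPKM in mouse 2 and to at most 7.95 FPKM elsewhere. Of 13 endothelial, stellate and bile duct markers 1 was listed, Krt19, at 6.12 FPKM in mouse 2 and at most 0.93 FPKM elsewhere, and none of 13 Kupffer cell and macrophage markers was listed. In mouse 3 the median log2 distance to the LoxP mean was 0.06 for the erythrocyte and 0.07 for the neutrophil markers, against 0.48 for the 6 acute-phase genes. In mouse 1 it was 0.79 and 0.64, against 1.53. In mouse 2 it was 2.10 and 1.33, against 3.74, the erythrocyte value being close to those of Lrg1 (2.06) and Serpina3n (2.02) in that mouse. The added 1 shrinks these distances for low markers, such as Ltf and Mpo. As multiples of the LoxP mean, the 7 neutrophil markers ran from 1.30 to 5.47 in mouse 1. In mouse 2 they ran from 4.17 to 32.7 and in mouse 3 from 0.84 to 1.62. The 6 acute-phase genes ran from 1.40 to 3.69, from 3.98 to 80.1 and from 1.04 to 1.63, respectively. The part of other cells in the acute-phase levels was not tested.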

How the data were processed

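Liver RNA of 3 LoxP and 3 SIRT2-KOhep mice, 1 library per mouse, was sequenced on a DNBSEQ instrument after mRNA enrichment or rRNA removal. The table deposited by the authors holds FPKM of 205 genes, given to 2 decimals and made on mm10 per the submitters' processing notes. Aligner, counter and the rule that selected the genes are not given in the sources used here. Depth is unknown, so no counting interval was given, and no count model was used. Groups came from the sample labels, and 0 columns were left unused.

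NCBI Gene IDs were matched to symbols through RefSeq (203 of 205). FPKM values were tested as log2(FPKM + 1) with limma 3.58.1 (R 4.3.3, empirical Bayes with trend) over all 205 genes, without a low-value filter, with Benjamini-Hochberg adjustment and a threshold of 0.05. Single values were tested with two-sided exact permutation tests (scipy 1.17.1, Python 3.11.15). The fit was run on simulated data in which all genes were raised above the low range and no library stood apart. This does not test its behaviour with low genes or with a mouse such as SIRT2-KOhep mouse 2. The limma p-values weigh the group difference against the spread between the 3 mice of a group, with variances moderated over all 205 genes. The permutation p-values rank that difference among all relabellings of the mice.

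The 6 genes and the gene lists were chosen with earlier results of these data known. The text names the 6 genes, Sirt2, listed genes of 10 gene lists, and the 5 genes nearest to Lrg1 and the 3 nearest to Saa2 by profile, with a mean of at least 1 FPKM. Replicate numbers were not taken as pairs in the main fit. Deviations of same-numbered mice correlated at -0.19, 0.03 and 0.34, which cannot show whether these mice were paired. Alternatives were other pseudocounts (0.1 and 0.01), a filter at a mean of 1 FPKM, fits without trend or moderation, a replicate block, rescaled libraries, Saa1 and Saa2 added together, and each mouse left out.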

Additional observations from a re-analysis of the deposited data

How the results depend on the processing

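No alternative brought an adjusted p of any of the 6 genes below 0.05, the range being 0.166 to 0.721 for Lrg1 and 0.166 to 0.563 for Apcs in limma. By unadjusted p, Apcs (log2 fold change 1.51) passed, which took the count of genes past the threshold from 0 to 1. Dividing the libraries by their median ratio to the gene means turned Serpina3n to -0.060 and left 2 of the 6 genes without overlap. Ratios to geometric means, chosen after seeing the data, left 4, and with 1 mouse left out the count ran from 4 to 6. With either scaling, the order of mouse 2 above mouse 1 above mouse 3 was left in 3 of the 6 genes, a comparison added after seeing the data. Leaving out 1 mouse at a time, the log2 fold change ran from 0.90 to 1.70 for Lrg1, from 1.09 to 3.58 for Saa1, from 1.25 to 4.09 for Saa2, from 0.84 to 3.05 for Orm2, from 1.11 to 2.02 for Apcs and from 0.30 to 1.27 for Serpina3n. The group difference in the log2 ratio of Orm2 to Lrg1 ran from -0.057, without SIRT2-KOhep mouse 2, to 1.70. The causes of these changes were not tested. With the replicate number as a block, the log2 fold change of Lrg1 was 1.29 (adjusted p = 0.328 from limma) and 0 of the 6 genes passed. By unadjusted limma p, the gene past the threshold with the block was Saa2 in place of Apcs. Ratios and overlaps were not fitted with the block. With 3 mice per group, unknown depth and a selected gene list, differences of the size seen without mouse 2 could not be told from the spread between mice.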

Other observations

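A few ratios between neighbouring transcripts were computed after the values had been seen, and they are given as values. The ratio of Lrg1 to Fgl1 was 0.76, 0.96 and 0.83 in the LoxP mice and 0.73, 0.69 and 0.68 in the SIRT2-KOhep mice, so that the groups did not overlap (log2 difference -0.27, p = 0.1 in an exact two-sided permutation test, the smallest that 3 mice against 3 allow, not adjusted for the choice of the pair). Fgl1 was thus higher against Lrg1 in each SIRT2-KOhep mouse.

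Within the α1-acid glycoprotein genes, which lie side by side on chromosome 4, Orm2 supplied 6.46%, 4.37% and 3.89% of the summed Orm1, Orm2 and Orm3 FPKM in the LoxP mice. It supplied 6.42%, 28.4% and 6.20% in the SIRT2-KOhep mice, mouse 2 being the library apart. The ratio of Mt1 to Mt2, the metallothionein pair, was 1.96, 2.01 and 1.77 in the LoxP mice and 1.80, 1.13 and 1.28 in the SIRT2-KOhep mice, with mouse 1 within the LoxP range (exact permutation p = 0.2).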
